A study of Mus musculus with 338 samples.

Results

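The response of pancreatic islets to 2 days of a high-fat, high-sugar diet was measured in AKR/J mice, an inbred laboratory strain. The members are the libraries that the labels give as strain AKR/J at day 2: 6 mice on High Fat, High Sugar (HFHS; named 5HF1 to 5HF6) and 5 mice on Regular Chow (RC; named 5RC1 to 5RC5), 11 of the 338 libraries of the series. The series covers 6 inbred strains on both diets at days 2, 10, 30 and 90. Each library holds total RNA of whole islets of 1 mouse, prepared from at least 150 islets. The labels used here give neither the age nor the sex of the mice, and name no transgene and no treatment other than the diet. Replicates are separate mice, so the spread between them includes both the animals and the library preparation.

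Islets are small clusters of endocrine cells, mostly insulin-producing beta cells, with alpha cells that make glucagon and delta cells that make somatostatin, and with vessels, stroma and some exocrine tissue that stay attached during isolation. Insulin is made as a precursor that enters the endoplasmic reticulum (ER), is folded there with the help of chaperones, and leaves in coated vesicles towards the Golgi and the secretory granules. When the folding load of the ER grows, the unfolded protein response raises chaperones through the factors Atf6 and Xbp1, while a separate branch through Perk and Atf4 raises stress genes such as Ddit3. Beta cells of adult mice divide rarely, and a rise in the demand for insulin is known to increase both their secretory machinery and their division.

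The 11 libraries held 20489386 to 30085659 reads assigned to genes. The defining islet markers were abundant in all of them: Ins1 and Ins2 together took 22.8% to 31.8% of the assigned reads in HFHS mice and 24.7% to 28.7% in RC mice. The slope of a library's counts on the GC content of genes ran from -0.01 to 0.29 log2 per 10 GC points on HFHS and from 0.19 to 0.31 on RC, so this slope moved with diet. Mouse 5RC3 stood apart by its lymphocyte genes, whose summed level was 394 CPM (counts scaled to the library total) against 10.1 to 58.1 in the other 10 mice. Results that rest on that mouse are given with and without it, and no pair of mice within a diet agreed within counting noise (chi-square per degree of freedom at least 8.19 over 25 pairs).

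Of 15465 genes tested, 2489 were higher on HFHS (16.1%) and 2101 were lower (13.6%) by edgeR's quasi-likelihood test with Benjamini-Hochberg adjustment at 0.05, fitted on all 55 AKR/J libraries. With all 338 libraries in 1 fit of 48 groups the counts were 620 and 518. The median log2 fold change over all genes was -0.02. The values of the 6 HFHS mice all lay above those of the 5 RC mice for 1058 genes (6.84%) and all below for 557 genes (3.60%). Without 5RC3, 2163 genes were higher (13.9%) and 1361 lower (8.75%). Among the genes called, 54.2% were higher, against 31.8% with the authors' normalized table (10.2% of its genes higher and 21.8% lower by limma), in which the median of all genes lay at -0.11. The gene lists below are therefore read against 16.1% called higher and 13.6% called lower.

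**Figure D1:**
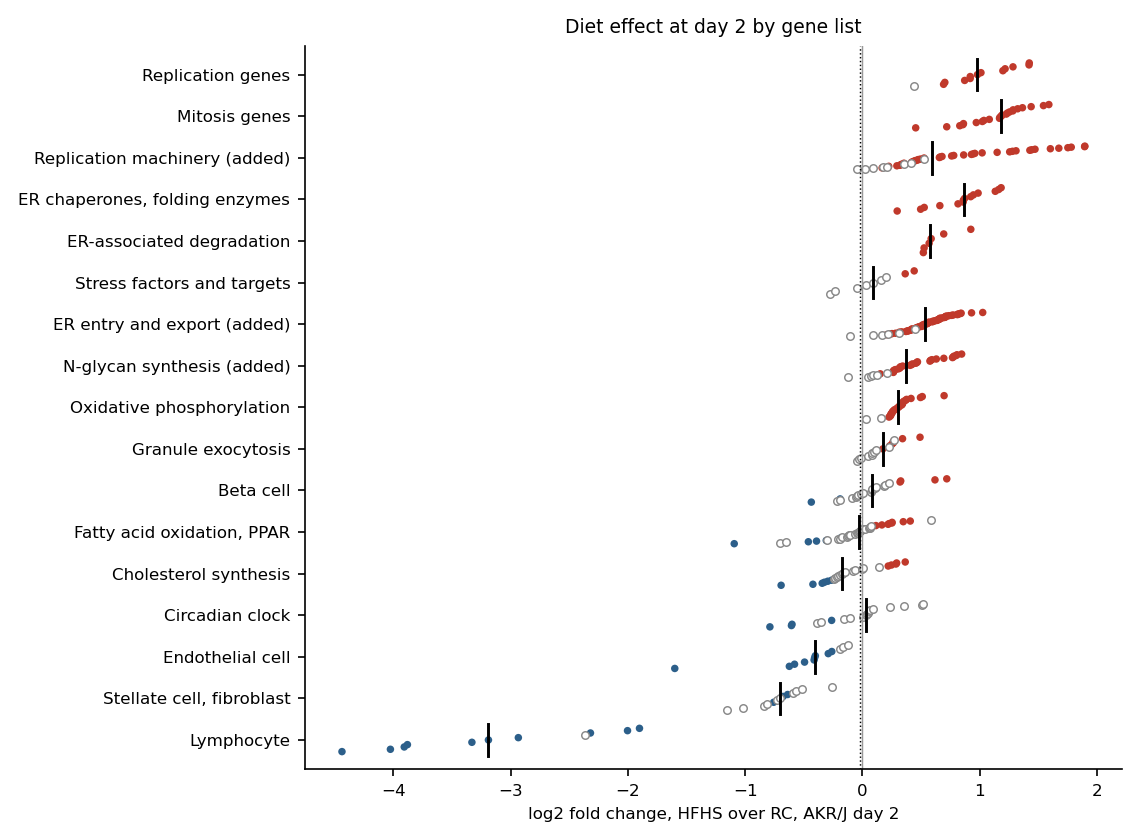
Log2 fold change of HFHS over RC at day 2 for the genes of 17 lists, 1 point per gene; red genes rose and blue genes fell at an adjusted p under 0.05, open circles did not pass, the black bar is the list's median and the dotted line the median of all genes tested (-0.02). The replication, mitosis and ER lists lie to the right of 0, the endothelial, stellate and lymphocyte lists to the left, and the lymphocyte values rest on mouse 5RC3.

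Genes of DNA replication and cell division rose within 2 days, many of them by about 2-fold. Of 39 genes on the cell cycle list, 36 rose, and the list's median log2 fold change was 1.08. Its mitosis genes rose in 23 of 23 cases (median 1.18) and its replication genes in 12 of 13 (median 0.98). A wider list of the replication machinery, drawn up after the values had been seen, had 38 of 46 genes higher (median 0.59). The rise covered 9 of 11 genes of origin licensing and firing, 8 of 9 of the polymerases and primase, 9 of 10 of the clamp loader, single-strand binding and ligation, 5 of 6 of histone supply and chromatin copying, and 7 of 10 of repair at the fork.

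Promoters of a few of these genes hold the short element bound by E2F factors, which drive entry into S phase, and 2 are shown because both genes are subunits of the helicase that unwinds DNA at origins. The sequences are from RefSeq on GRCm38.p6, read 5′ to 3′ on the strand of the gene, and capitals mark a match to TTTCGCGC or TTTGGCGC on either strand, with overlapping matches joined. Mcm5 lies at chr8:75109329-75109508 on the plus strand and Mcm6 at chr1:128359706-128359855 on the minus strand.
Mcm5: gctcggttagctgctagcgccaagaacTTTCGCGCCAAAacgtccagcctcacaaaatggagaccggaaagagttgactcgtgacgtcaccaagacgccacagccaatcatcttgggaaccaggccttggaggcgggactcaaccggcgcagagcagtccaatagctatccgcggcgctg
Mcm6: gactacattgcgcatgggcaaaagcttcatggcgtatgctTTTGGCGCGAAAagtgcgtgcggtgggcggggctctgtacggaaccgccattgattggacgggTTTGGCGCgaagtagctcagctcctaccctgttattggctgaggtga
In the 250 bases before the gene start, 3 of 33 promoters matched to the cell cycle list held such a match (9.09%), and 5 of 43 of the replication machinery (11.6%). Over all 32841 promoters searched the share was 0.655%. A match is a description of the letters, not a binding site or a cause.

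Mcm6, a helicase subunit, had a normalised CPM (scaled by TMM, the trimmed mean of M-values) between 14.9 and 38.9 on HFHS with a median of 24.4, and of 9.32, 8.05, 13.1, 9.80 and 6.33 in the RC mice. Every HFHS mouse lay above every RC mouse, and the log2 fold change was 1.42 (SE 0.222, edgeR adjusted p = 3.15e-06). Mcm5 rose by 1.28, with 1 RC mouse (18.3) above the lowest HFHS mouse (17.7). Cdc6, which loads the helicase onto origins, ran from 3.80 to 8.73 (median 5.86) on HFHS against 1.19, 1.13, 1.36, 2.30 and 1.87 on RC. The groups did not overlap, and the log2 fold change was 1.90 (SE 0.242, edgeR adjusted p = 7.79e-08). Pcna, the sliding clamp of the polymerases, rose by 0.92 from 8.06 to 10.4 in RC mice to 12.8 to 21.8 in HFHS mice, again without overlap. Log2 fold changes of other members were 1.90 for Dtl, which marks the licensing factor Cdt1 for destruction, 1.47 for the helicase cofactor Cdc45, 1.42 for the nucleotide-making Rrm2 and 1.68 for the histone chaperone Asf1b. Each of these 4 had non-overlapping groups.

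Mitosis genes rose with a wider spread between mice. Top2a, which untangles chromosomes, was at 17.3 to 66.0 normalised CPM on HFHS (median 30.9) and at 11, 15.1, 14.1, 13 and 4.70 on RC, a log2 fold change of 1.59 (SE 0.300, edgeR adjusted p = 7.27e-05). The proliferation marker Mki67 ran from 15.3 to 71.6 (median 28.9) on HFHS and reached 13.5, 18.7, 14.2, 14.1 and 7.57 on RC. Its groups overlapped, since 2 of the 6 HFHS mice lay below the highest RC mouse, although it passed the test (1.28, SE 0.317, edgeR adjusted p = 0.00189). The mitotic kinase Cdk1 rose by 1.44 and the mitotic transcription factor Foxm1 by 0.97. The same 3 HFHS mice, 5HF1, 5HF3 and 5HF6, held the highest Mcm6, Cdc6 and Top2a. Of the D cyclins, which start the cycle, Ccnd1 rose by 0.33 (edgeR adjusted p = 0.00124), while Ccnd2, the main D cyclin of beta cells, had a log2 fold change of 0.23 (edgeR adjusted p = 0.0866) and Ccnd3 one of -0.07. E2f1, an E2F factor, rose by 0.92.

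Which cells divided cannot be read from whole islets, where more cells of a type and more RNA per cell cannot be told apart. The summed markers of endothelial cells, stromal cells and macrophages, all of which can divide, were lower on HFHS, as given below. Alpha cell markers took a higher share, 3.20% on HFHS against 2.61% on RC (exact permutation test, two-sided, adjusted p = 0.0357), and acinar markers had 0.432% against 0.246% (adjusted p = 0.157, same exact test). The part of these cell types in the cell cycle result was not tested. The cell cycle call remained at 34 of 39 genes without 5RC3 and 37 of 39 after a correction for GC content, under which 18.2% of all genes were higher and 11.4% lower.

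The ER folding machinery rose together. All 14 chaperones and folding enzymes on the list rose, with a median log2 fold change of 0.87 and a range of 0.30 to 1.18, and in all 14 every HFHS mouse lay above every RC mouse (6.84% of all genes tested did so). All 6 genes of ER-associated degradation, which removes misfolded proteins, rose as well (median 0.58). Of the 9 stress transcription factors and their targets, only Xbp1 and Asns passed the test.

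The promoters of 4 of these genes are shown because they hold the ER stress response element, CCAAT followed after 9 bases by CCACG, which is known to bind NF-Y together with Atf6 or Xbp1. The sequences are from RefSeq on GRCm38.p6, read 5′ to 3′ on the strand of the gene, with the element's fixed letters in capitals on either strand. The windows are chr2:34771940-34772089 for Hspa5, chr15:88819496-88819645 for Creld2, chr10:75893218-75893397 for Derl3 and chr12:17266439-17266588 for Pdia6, all on the plus strand.
Hspa5: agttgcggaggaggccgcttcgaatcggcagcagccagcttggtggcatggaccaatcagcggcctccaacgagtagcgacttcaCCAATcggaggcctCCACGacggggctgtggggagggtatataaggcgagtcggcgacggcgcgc
Creld2: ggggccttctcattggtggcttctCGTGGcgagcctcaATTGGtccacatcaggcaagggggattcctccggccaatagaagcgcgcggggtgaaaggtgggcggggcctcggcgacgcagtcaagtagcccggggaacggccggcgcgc
Derl3: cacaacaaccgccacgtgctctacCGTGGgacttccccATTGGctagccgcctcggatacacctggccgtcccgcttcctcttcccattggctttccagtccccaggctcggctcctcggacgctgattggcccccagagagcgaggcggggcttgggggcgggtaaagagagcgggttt
Pdia6: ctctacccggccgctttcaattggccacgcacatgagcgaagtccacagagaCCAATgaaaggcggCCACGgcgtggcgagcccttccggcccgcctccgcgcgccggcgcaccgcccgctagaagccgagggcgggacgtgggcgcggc
In the 250 bases before the gene start, 9 of 19 promoters of the chaperones, folding enzymes and degradation genes held this element (47.4%), against 37 of 32841 promoters in all (0.113%). Besides these 4 genes they belonged to Calr, Canx, Hsp90b1, Dnajc3 and Syvn1. A match describes the letters and is neither a shown site nor a cause.

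Hspa5, the main chaperone of the ER lumen, was at 2362 to 3349 normalised CPM on HFHS with a median of 2802, and at 1467, 1677, 1480, 1593 and 1245 on RC. The lowest HFHS mouse lay well above the highest RC mouse, and the log2 fold change was 0.95 (SE 0.116, edgeR adjusted p = 3.70e-08). Its cofactor Dnajb9 ran from 409 to 543 (median 472) on HFHS against 195, 255, 206, 227 and 176 on RC, a log2 fold change of 1.18 (SE 0.149, edgeR adjusted p = 6.74e-08) and the largest of the 14. Creld2, a disulfide isomerase-like factor secreted under ER stress, was at 142.6 to 268 (median 208) against 89.3, 91.0, 100.2, 103.7 and 76.1. Its log2 fold change was 1.16, and the groups did not overlap. The log2 fold change was 1.13 for the Hspa5 partner Sdf2l1, 0.92 for the ER-resident growth factor Manf, 0.86 for the disulfide isomerases Pdia4 and Pdia6, 0.66 for the lectin chaperone Calr and 0.30 for its membrane-bound relative Canx. In the degradation group, Derl3 rose by 0.92, Edem1 by 0.69, the ubiquitin ligase Syvn1 by 0.57 and Herpud1 by 0.52.

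Among the stress factors, Xbp1 rose from 291 to 346 normalised CPM in RC mice to 374 to 457 in HFHS mice (log2 fold change 0.44, SE 0.0655, edgeR adjusted p = 1.30e-06) and Asns, an amino acid synthesis enzyme under Atf4, by 0.37. The counts do not separate the spliced from the unspliced Xbp1 transcript. Ddit3, the death-linked factor of prolonged stress, was at 9.41 to 15.6 (median 14) on HFHS and at 12.8, 12.6, 16.7, 19.1 and 18.1 on RC. These groups overlapped, with a log2 fold change of -0.24 (edgeR adjusted p = 0.203). Atf4 had a log2 fold change of 0.09, Trib3 of -0.05, Atf3 of -0.28 and Ppp1r15a, a phosphatase subunit that ends the translation block, of 0.03, and none of these 4 passed the test.

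The route into and out of the ER rose with the chaperones. On a list of 66 genes drawn up after the values had been seen, 60 rose, with a median log2 fold change of 0.54, and 47 had non-overlapping groups. The rise covered 18 of 18 genes of the translocon and signal recognition (median 0.63), 5 of 5 signal peptidase subunits (0.68), 10 of 10 oligosaccharyltransferase subunits, which attach the N-glycan (0.58), 8 of 9 COPI coat genes (0.47), 9 of 13 COPII coat genes (0.37) and 10 of 11 cargo and retrieval receptors (0.57). The element described above was found in 0 of the 59 promoters matched to this list.

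Sec23b, a subunit of the COPII coat that carries cargo from the ER, was at 250 to 353 normalised CPM on HFHS (median 272) and at 143.8, 164, 137.9, 139.2 and 108.7 on RC. The groups lay far apart for their spread, with a log2 fold change of 1.03 (SE 0.115, edgeR adjusted p = 6.29e-09). Ssr2, a subunit of the complex that assists the translocon, ran from 273 to 420 (median 386) against 189, 209, 183, 219 and 162.2 (log2 fold change 0.93). The log2 fold change was 0.84 for the coat subunit Sec24d, 0.81 for Ssr1, 0.78 for Rpn1 and 0.74 for Stt3a of the oligosaccharyltransferase, 0.71 for the signal peptidase subunit Spcs2 and for the cargo receptor Lman1, 0.64 for the retrieval receptor Kdelr2, 0.62 for the channel subunit Sec61a1 and 0.53 for Copb2 of the COPI coat. Genes that build N-glycans, a list also drawn up afterwards, rose in 28 of 34 cases (median 0.37), with values of 0.81 for Gmppb and 0.80 for Pgm3, both enzymes of sugar nucleotide synthesis.

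Acinar cells of the exocrine pancreas also hold much of this machinery. The summed acinar markers ranged from 1265 to 6875 CPM on HFHS and from 1368 to 4521 on RC, and 1 of 24 acinar genes passed the test: Bhlha15, a factor of secretory cells in general, which rose by 0.85. The median over the acinar list was 0.98. With the acinar level as a covariate, the medians were 0.57 for the ER stress and folding list and 0.53 for the entry and export list. The part of acinar cells in the ER result was not tested.

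**Figure D2:**
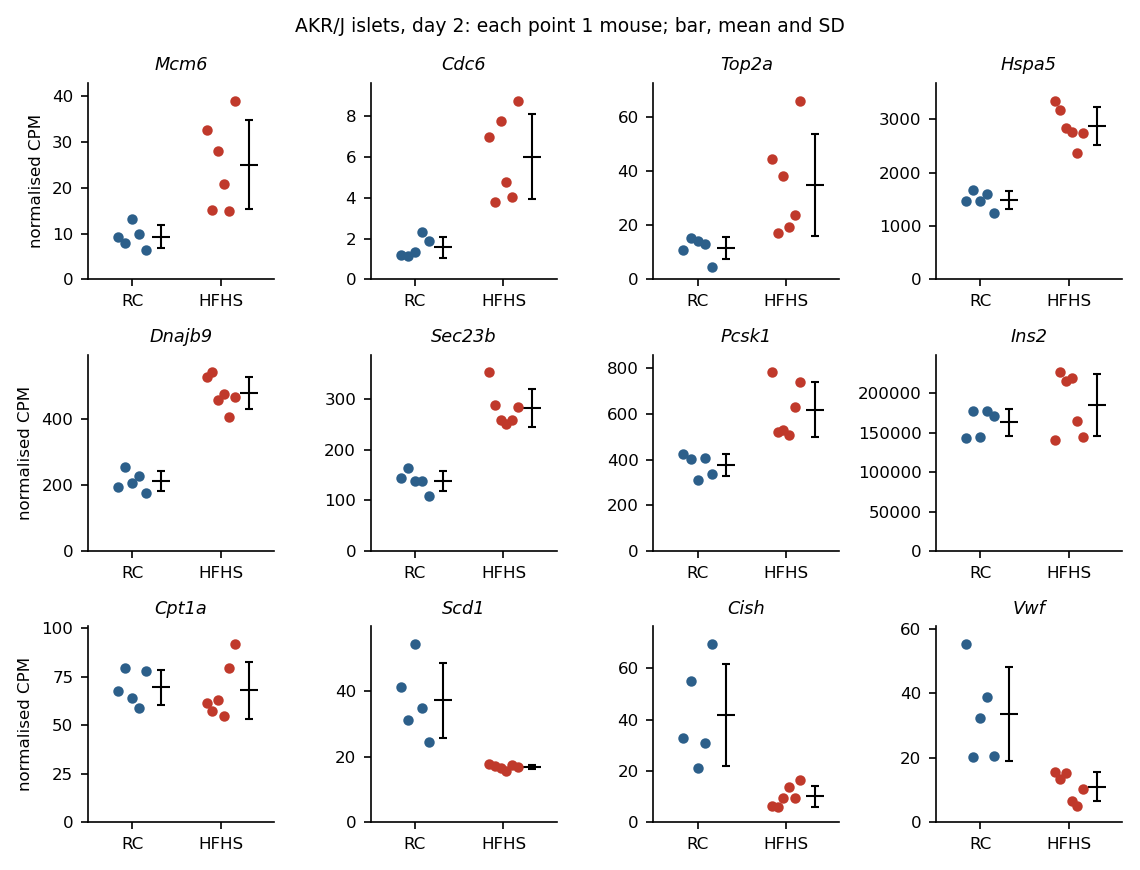
Normalised CPM of 12 genes in the 5 RC (blue) and 6 HFHS (red) mice, 1 point per mouse, with the mean and SD beside the points; each axis starts at 0. The groups do not overlap in Mcm6, Cdc6, Top2a, Hspa5, Dnajb9, Sec23b, Pcsk1, Scd1, Cish and Vwf, and they overlap in Ins2 and Cpt1a.

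Genes of the mitochondrial respiratory chain rose by small amounts: 24 of 26 oxidative phosphorylation genes passed, with a median log2 fold change of 0.31. Atp5b, the catalytic subunit of the ATP synthase, was at 611 to 754 normalised CPM on HFHS (median 737) and at 524, 546, 546, 568 and 554 on RC, without overlap (log2 fold change 0.37, SE 0.0518, edgeR adjusted p = 5.98e-07). Uqcrb of complex III rose by 0.51 and Ndufa4 by 0.50, both with overlapping groups.

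The insulin genes themselves did not pass the test. Ins1 and Ins2 share much of their sequence, so reads could be split between them. Each had a log2 fold change of 0.19 (edgeR adjusted p = 0.256 and 0.243). Their joint share of reads was 27.4% ± 4.37 (SD, n = 6) on HFHS and 27% ± 1.80 (SD, n = 5) on RC (exact permutation test, two-sided, p = 0.849, 0.933 adjusted over 11 shares). The HFHS mice lay on both sides of the RC range of 24.7% to 28.7%. Mice 5HF2, 5HF3 and 5HF4 were above it at 30.7%, 31.6% and 31.8%. Mice 5HF1, 5HF5 and 5HF6 were below it at 22.8%, 24.2% and 23.3%. This division within the HFHS group was not tested. Enzymes that process the precursor rose: Pcsk1, which makes the first cut in proinsulin, was at 506 to 782 normalised CPM on HFHS (median 580) and at 424, 403, 311, 405 and 335 on RC. Every HFHS mouse lay above every RC mouse, and the log2 fold change was 0.72 (SE 0.105, edgeR adjusted p = 8.80e-07). The second convertase, Pcsk2, rose by 0.34, also without overlap. Of 23 beta cell genes, 5 rose and 2 fell (median 0.08; 3 rose after the GC correction). Ero1lb, the islet form of the oxidase that feeds the disulfide isomerases, was at 489 to 729 (median 593) on HFHS and at 446, 411, 407, 367 and 338 on RC, without overlap (log2 fold change 0.62, SE 0.114, edgeR adjusted p = 4.38e-05). G6pc2, a glucose-6-phosphatase of beta cells, rose by 0.33, also without overlap, and the factor Neurod1 by 0.21, a call lost without any of 6 mice. Kcnj11, the pore of the ATP-sensitive potassium channel, fell by 0.19, a call lost after the GC correction (edgeR adjusted p = 0.37). The log2 fold change was 0.32 for Iapp, the amyloid peptide secreted with insulin, which passed (edgeR adjusted p = 0.0094) but not after the GC correction (0.0989). Pdx1 and Mafa, which maintain beta cell identity, had log2 fold changes of 0.11 and -0.04, and Slc2a2, which takes up glucose, one of 0.08; none of these 3 passed. Rab3a, which tethers granules before release, rose by 0.49, and 7 of 17 exocytosis genes rose in all (median 0.17).

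Alpha cell genes lay higher in the summed reads than in single tests. They took 3.20% ± 0.518 (SD, n = 6) of reads on HFHS and 2.61% ± 0.206 (SD, n = 5) on RC (exact permutation test, two-sided, adjusted p = 0.0357), a call lost without any of 9 of the 11 mice. Gcg, the glucagon gene, had a log2 fold change of 0.45 that did not pass (SE 0.180, edgeR adjusted p = 0.0524), although each HFHS mouse exceeded each RC mouse. The amino acid transporter Slc38a5 rose by 0.95 and Ttr by 0.50, the only 2 of 8 alpha cell genes to pass. Slc38a5 was at 34.7 to 61.3 normalised CPM on HFHS (median 41.4) and at 24.4, 24.2, 16.4, 25.1 and 23.1 on RC, without overlap. Of 6 delta and PP cell genes, 2 rose; without 5RC3 edgeR called 0 of the 6 (2 higher at an unadjusted p under 0.05). The somatostatin gene Sst was at 4053 to 5787 (median 5165) on HFHS and at 3558, 4059, 2796, 4115 and 4136 on RC, a log2 fold change of 0.43 (edgeR adjusted p = 0.0241) that was lost without any of 4 mice, 5RC3 among them (0.105). Ppy, the pancreatic polypeptide gene, had a log2 fold change of -0.11 (edgeR adjusted p = 0.802).

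Other lists covered beta cell metabolism and state. Of 13 glycolysis genes, 3 rose and 1 fell (median 0.02), beside 16.1% and 13.6% of all genes, and 6 rose after the GC correction. The triose isomerase Tpi1 rose by 0.28, Pgk1 by 0.43 and Pgam1 by 0.36, while the enolase Eno2 fell by 0.23, a call lost without any of 4 mice. Of 8 genes that are kept low in mature beta cells, Neurog3, the factor that starts endocrine development, rose by 0.57 (4.46 to 7.32 normalised CPM on HFHS against 3.46 to 4.55 on RC, edgeR adjusted p = 0.0153), and the hexokinase Hk1 fell by 0.46, the latter not past the test without 5RC3 (0.0584). Aldh1a3, a marker of stressed beta cells on the same list, had a log2 fold change of -0.40 (edgeR adjusted p = 0.524). edgeR called 0 of 8 glucose-responsive genes (2 lower at an unadjusted p under 0.05, 1 lower by DESeq2), and Txnip, the best known of them, had a log2 fold change of -0.36 (edgeR adjusted p = 0.11) although its groups did not overlap. It also called 0 of 5 islet neuropeptide genes, with 0 at an unadjusted p under 0.05 and 0 by DESeq2.

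The 15 largest rises were those of Pdyn and of 14 genes with roles in the cycle. Besides those given above these were the chromatin remodeller Hells, the recombination factor Fignl1, the mitotic kinase Pbk, the kinase subunit Cks1b, the S phase gene Tcf19, the kinetochore subunit Spc24 and the spindle motor Kif11, at log2 fold changes of 1.32 to 1.74. Pdyn, the precursor of the opioid peptide dynorphin, was at 63.8 to 96.6 normalised CPM on HFHS (median 83.1) and at 40.1, 25, 31, 35.7 and 19.1 on RC, a log2 fold change of 1.41 (SE 0.246, edgeR adjusted p = 2.31e-05) without overlap. Smaller rises, picked after their values were seen, were those of Dapl1 by 1.26, of the gut-type glutathione peroxidase Gpx2 by 1.08 and of the guanylate cyclase receptor Gucy2c by 1.07.

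Lipid genes moved in both directions. Fatty acid oxidation genes did not rise together: of 37 genes tested, 8 rose and 5 fell, and the median was -0.03. Cpt1a, the gate of fatty acids into mitochondria and a standard target of the lipid-sensing PPAR receptors, was at 54.9 to 91.8 normalised CPM on HFHS (median 62.1) and at 67.6, 79.4, 64.0, 58.7 and 77.8 on RC. These values overlapped throughout, with a log2 fold change of -0.03 (SE 0.127, edgeR adjusted p = 0.873). The PPAR targets Slc25a20 (-0.02), Pdk4 (0.58, edgeR adjusted p = 0.0862) and Angptl4 (-0.70, edgeR adjusted p = 0.0959) did not pass either. Those that rose were mostly enzymes of the oxidation chain itself, by 0.41 for Etfb and 0.35 for Etfdh, which pass electrons on, and by 0.25 for Acadvl.

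Of 18 genes of fatty acid synthesis and desaturation, 4 fell and 1 rose (median -0.07). Acacb, which is on none of the lists and whose product malonyl-CoA blocks Cpt1a, fell by 0.88, from 10.9 to 15.9 on RC to 6.44 to 7.49 on HFHS. Scd1, the stearoyl-CoA desaturase, was at 15.8 to 17.7 on HFHS (median 16.9) and at 41.2, 31.1, 54.3, 34.7 and 24.4 on RC, with a fall by 1.14 on the log2 scale (SE 0.266, edgeR adjusted p = 0.00109). The HFHS mice thus lay within a narrow range below a wide RC range. The desaturase Fads1 fell by 0.19 without overlap, and the elongase Elovl6 rose by 0.28, which did not pass without 5RC5 (edgeR adjusted p = 0.0529). The Fads1 call was lost after the GC correction (0.0656). Of 13 genes of the glycerolipid cycle 1 fell, the lipase gene Lipe by 0.30 (edgeR adjusted p = 0.0446), a call lost without any of 8 of the 11 mice. Plin2, a lipid droplet coat protein, fell by 0.39 (edgeR adjusted p = 0.0402), a call lost without any of 6 of the 11 mice.

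Of 24 cholesterol genes, 5 rose and 6 fell (median -0.17). By limma on the authors' normalized values 10 of the 24 fell. The sterol regulators Srebf2 and Insig1 fell by 0.32 and 0.34, while the synthesis enzymes Sqle and Lss rose by 0.22 and 0.29. Mlxipl, the glucose-sensing factor ChREBP, fell by 0.48, but not past the test without 5RC5 (edgeR adjusted p = 0.0692). The Insig1 call was lost without 5RC5 (0.101) or 5HF1 (0.0753). The elongase Elovl2 had a log2 fold change of 0.24 (edgeR adjusted p = 0.116).

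Of 19 clock genes, 4 fell, beside 13.6% of all genes, and the other 15 did not pass (median 0.03). The transcriptional repressor Bhlhe40 fell by 0.61, the Clock paralog Npas2 by 0.60 and Arntl, the partner of Clock, by 0.26, the last a call lost without any of 5 mice, 5RC3 among them (edgeR adjusted p = 0.0819). The core genes Per1 (-0.35), Per2 (0.07), Per3 (0.04), Cry1 (0.09), Clock (0.23), Nr1d1 (0.51), Dbp (0.35) and Nfil3 (0.06) did not pass. The hour of tissue collection was not given in the labels used here.

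RNA of Cish and Socs2, inhibitors of prolactin and growth hormone signalling, fell. These hormones act through Stat5, and Cish and Socs2 are Stat5 targets that damp the receptor. Cish was at 6.00 to 16.4 normalised CPM on HFHS (median 9.59) and at 33, 55, 21.1, 31 and 69.6 on RC, a fall by 2.01 on the log2 scale (SE 0.357, edgeR adjusted p = 3.00e-05). No HFHS mouse reached the lowest RC mouse, and the log2 fold change was -2.18 with 5RC3 left out (edgeR adjusted p = 1.79e-05). Pigr is the receptor that carries antibodies across epithelia. Its fall (-2.64, edgeR adjusted p = 0.0282) did not pass without 5RC5 (0.142) or 5HF1 (0.052). Socs2 was at 13.7 to 18.3 (median 14.9) on HFHS against 22.3, 26.4, 22.5, 24.2 and 26.2 on RC, a fall by 0.65. The prolactin receptor Prlr rose by 0.66 (SE 0.159, edgeR adjusted p = 0.00139), from 330 to 482 on RC to 390 to 884 on HFHS with overlap. Of 8 genes on this list, which was drawn up after the values had been seen, 2 rose and 4 fell, against 1 and 2 after the GC correction and 1 and 3 without 5RC3. Stat5a fell by 0.31 (edgeR adjusted p = 0.0392), a call lost without any of 4 mice and after the GC correction (0.173).

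Genes of the vessels fell. Of 12 endothelial genes, 9 fell (median -0.40), and 7 did so without 5RC3. Vwf, the clotting factor stored in endothelial cells, was at 4.98 to 15.6 normalised CPM on HFHS (median 11.8) and at 55.3, 20.4, 32.4, 38.7 and 20.6 on RC, without overlap (log2 fold change -1.60, SE 0.411, edgeR adjusted p = 0.00272). The junction protein Pecam1 was at 66.5 to 103.6 (median 83.2) against 143.8, 109.8, 146.1, 130 and 108.8, a fall by 0.62 on the log2 scale without overlap. Cdh5 fell by 0.58 and the angiopoietin receptor Tek by 0.49, while the VEGF receptor Kdr had a log2 fold change of -0.12 and did not pass. Summed over the list, endothelial reads were 0.0821% ± 0.0121 (SD, n = 6) on HFHS and 0.120% ± 0.0170 (SD, n = 5) on RC (exact permutation test, two-sided, adjusted p = 0.0357), a call lost without any of 7 of the 11 mice (adjusted p up to 0.0873).

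Stellate cell and fibroblast genes fell in 3 of 13 cases (median -0.70), or in 1 of 13 without 5RC3, and their summed share was 0.0977% ± 0.0427 (SD, n = 6) on HFHS and 0.170% ± 0.0379 (SD, n = 5) on RC (exact permutation test, two-sided, adjusted p = 0.0476; lost without each of 10 of the 11 mice). Pdgfrb, a pericyte receptor, fell by 0.68 and the complement gene C7 of stromal cells by 1.78 without overlap, while Col1a1 had a log2 fold change of -0.70 that did not pass (edgeR adjusted p = 0.155). The duct genes Muc1 and Krt19 fell by 1.73 and 1.44, but Krt7 rose by 0.32. Macrophage reads were 0.0189% ± 0.00320 (SD, n = 6) against 0.0315% ± 0.0114 (SD, n = 5) (exact permutation test, two-sided, adjusted p = 0.0357; 0.102 when scaled by TMM and up to 0.0873 without any of 8 of the 11 mice), yet 0 of 12 macrophage genes passed edgeR's test (3 were lower at an unadjusted p under 0.05, and 1 passed DESeq2). The interferon-induced Mx1 fell by 0.90, 1 of 19 interferon genes to pass, and Jun by 0.58, 1 of 21 immediate early and heat shock genes. edgeR called 0 of 13 antigen presentation genes (5 lower at an unadjusted p under 0.05, 3 lower by DESeq2). Of the adipocyte list 2 of 8 genes were abundant enough to be tested and of the red blood cell list 1 of 3, and neither edgeR nor DESeq2 called any (1 and 0 at an unadjusted p under 0.05). The summed adipocyte share of all 8 genes was 0.0020% ± 0.00053 (SD, n = 6) on HFHS and 0.0031% ± 0.00067 (SD, n = 5) on RC. It passed (exact permutation test, two-sided, adjusted p = 0.0357), but not when scaled by TMM.

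Lymphocyte genes show how far a single mouse can carry a list. With all mice, 10 of 11 fell (median -3.19), and the 15 genes with the largest falls included the B cell receptor gene Cd79b, the T cell kinase Lck, and Glycam1 and Cxcl13 of lymphoid vessels and stroma. The calls for Cd79b and Lck were lost without 5RC3 (edgeR adjusted p = 0.322 and 0.949), while Glycam1 (-3.65, edgeR adjusted p = 0.0231) and Cxcl13 (-3.38, edgeR adjusted p = 0.0241) still passed. Both then lay under the mean CPM of 5 set for named genes. Of the 15 largest falls, only 2, Pigr and Cish, were also among the 15 largest without 5RC3. Cd3e, a T cell receptor subunit, was at 0 to 0.327 normalised CPM on HFHS and at 0.169, 0.0834, 11.8, 0.130 and 0.141 on RC, so that 5RC3 alone stood high. Ptprc, carried by all white blood cells, was at 5.81 to 12.1 on HFHS and at 9.99, 6.25, 107.9, 19.1 and 7.57 on RC. Without 5RC3 the log2 fold change was -0.28 for Cd3e (edgeR adjusted p = 0.848) and -0.51 for Ptprc (0.674), and 0 of 11 lymphocyte genes passed edgeR's test or an unadjusted p under 0.05.

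**Figure D3:**
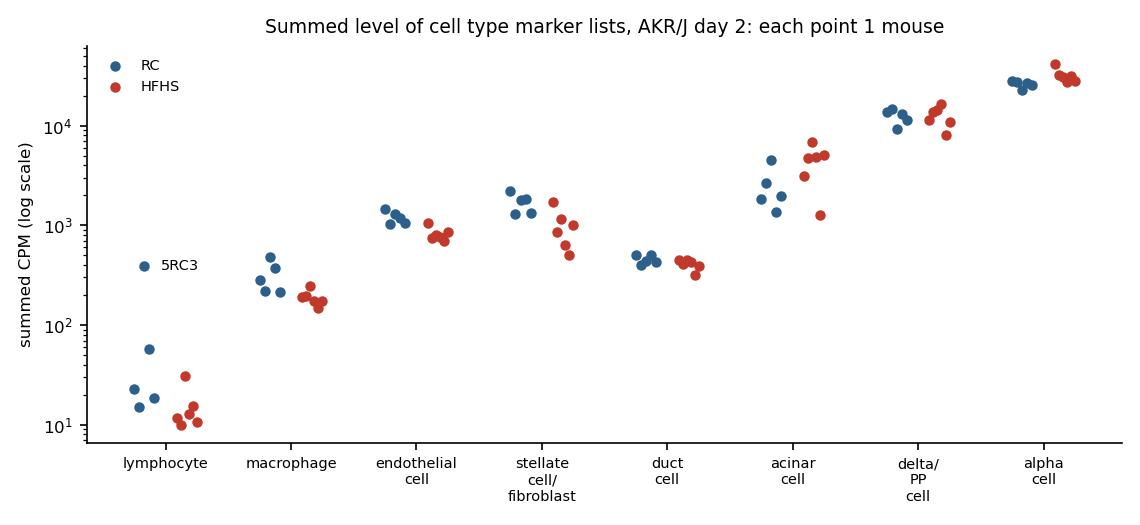
Summed CPM of 8 cell type marker lists in the RC (blue) and HFHS (red) mice, 1 point per mouse, on a log axis. Mouse 5RC3 stands at 394 CPM for the lymphocyte list against 10.1 to 58.1 in the other mice, and endothelial sums run from 704 to 1044 on HFHS and from 1032 to 1444 on RC.

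The change at day 2 was next set against the diet effect in AKR/J mice at days 10, 30 and 90, by the contrast of the day 2 effect with the mean of the 3 later effects. This contrast shares the day 2 libraries with the result above. It called 1548 genes with a higher effect at day 2 (10.0%) and 979 with a lower effect (6.33%); without 5RC3 these numbers were 1129 (7.26%) and 435 (2.80%), without 5HF2 the first was 1012, and in the fit of 48 groups they were 69 and 68. The diet effect alone called 1538 genes higher and 1575 lower at day 10 (9.95% and 10.2%), 270 and 263 at day 30 (1.75% and 1.70%), and 2618 and 2850 at day 90 (16.9% and 18.4%).

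ER chaperones rose at days 2 and 90, with smaller differences between the diets at days 10 and 30. All 14 chaperones and folding enzymes had a higher effect at day 2 than later (median of the difference 0.64). On their own, 1 of the 14 rose at day 10 and 13 at day 90 (median 0.52), while at day 30 edgeR called 0, with 0 at an unadjusted p under 0.05. Hspa5 had log2 fold changes of 0.08, 0.13 and 0.56 at days 10, 30 and 90, and its difference to day 2 was 0.69 (SE 0.129, edgeR adjusted p = 0.000269). Creld2 had values of 0.09, 0.20 and 1.19, so that day 90 lay near the 1.16 of day 2, and its difference was 0.67 (edgeR adjusted p = 0.0233), which was lost without 5HF1 (0.0599) or 5RC5 (0.0567). For Derl3 the effects of 0.42, 0.64 and 1.32 gave no call (0.13, edgeR adjusted p = 0.78). Of the ER entry and export genes, 47 of 66 had a higher effect at day 2. By the diet effect of each day, 12 of the 66 rose at day 10, 2 at day 30 and 59 at day 90. The median at day 90 was 0.35, against 0.54 at day 2.

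Replication and mitosis genes parted in this contrast. Of 13 replication genes on the cell cycle list, 11 had a higher effect at day 2 (median difference 0.84), against 1 of 23 mitosis genes (median 0.35). The difference between the lists was not tested. Both lists rose again at day 90, beside 16.9% of all genes. There 10 of the 13 replication genes (median 0.62) and 22 of the 23 mitosis genes (median 0.91) were higher on HFHS. At days 10 and 30, 1 and 1 of the replication genes and 4 and 5 of the mitosis genes were. Mcm6 had later log2 fold changes of 0.05, 0.12 and 0.74, with a difference of 1.12 (SE 0.245, edgeR adjusted p = 0.00151), and Pcna of 0.03, 0.05 and 0.19, with a difference of 0.83 (SE 0.105, edgeR adjusted p = 1.71e-06). Top2a kept values of 0.73, 0.66 and 0.89 at the later days, and its difference of 0.83 did not pass (edgeR adjusted p = 0.0733). Mki67 had values of 0.76, 0.62 and 1.03, with a difference of 0.48 (edgeR adjusted p = 0.366).

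Other genes had a different diet effect at day 2 than later. Cpt1a, at -0.03 on day 2, rose by 0.92, 0.71 and 0.57 at days 10, 30 and 90, and the day 2 effect was lower by 0.76 (SE 0.142, edgeR adjusted p = 0.000279). Slc25a20, the carnitine carrier beside it, had later values of 0.34, 0.38 and 0.45 and a difference of -0.42 (edgeR adjusted p = 0.0079). Gcg was at -0.66, -0.34 and -1.06 later, against 0.45 at day 2, a difference of 1.14 (SE 0.203, edgeR adjusted p = 0.000168), and 7 of 8 alpha cell genes had a higher effect at day 2. Cish had later values of -0.05, -0.55 and -0.21 (difference -1.74, SE 0.395, edgeR adjusted p = 0.00221). Prlr was at 0.29, -0.27 and -0.30 later (difference 0.75, edgeR adjusted p = 0.00305) and Pcsk1 at 0.21, 0.00 and 0.27 (difference 0.56). Scd1 had log2 fold changes of -0.46, -0.50 and -1.18 at the later days, of which the last passed, and its difference of -0.42 did not pass (edgeR adjusted p = 0.343). The 10 genes with the smallest p in this contrast were Pcna, the transcription factor Zfp367 (difference 0.97), the thioredoxin relative Txnl1 (0.54), Zfyve21 (0.68), the lysosomal Cln3 (-0.52), the mitochondrial Chchd3 (0.48), Rwdd4a (0.54), the dehydrogenase Aldh5a1 (0.56), the ER reductase Dnajc10 (0.40) and Cisd2 (0.32). Txnl1 shows the pattern, with 143.1 to 186 normalised CPM on HFHS against 107.8 to 120.3 on RC at day 2 and log2 fold changes of -0.01, -0.01 and 0.15 later. Sst, at -0.47, -0.15 and -0.75 later, had a difference of 0.88 (edgeR adjusted p = 0.000293), and Neurog3, at -0.30, -0.21 and -0.93, one of 1.05 (edgeR adjusted p = 0.000448). Oxidative phosphorylation genes had a higher effect at day 2 in 20 of 26 cases, and in 13 without 5RC3.

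**Figure D4:**
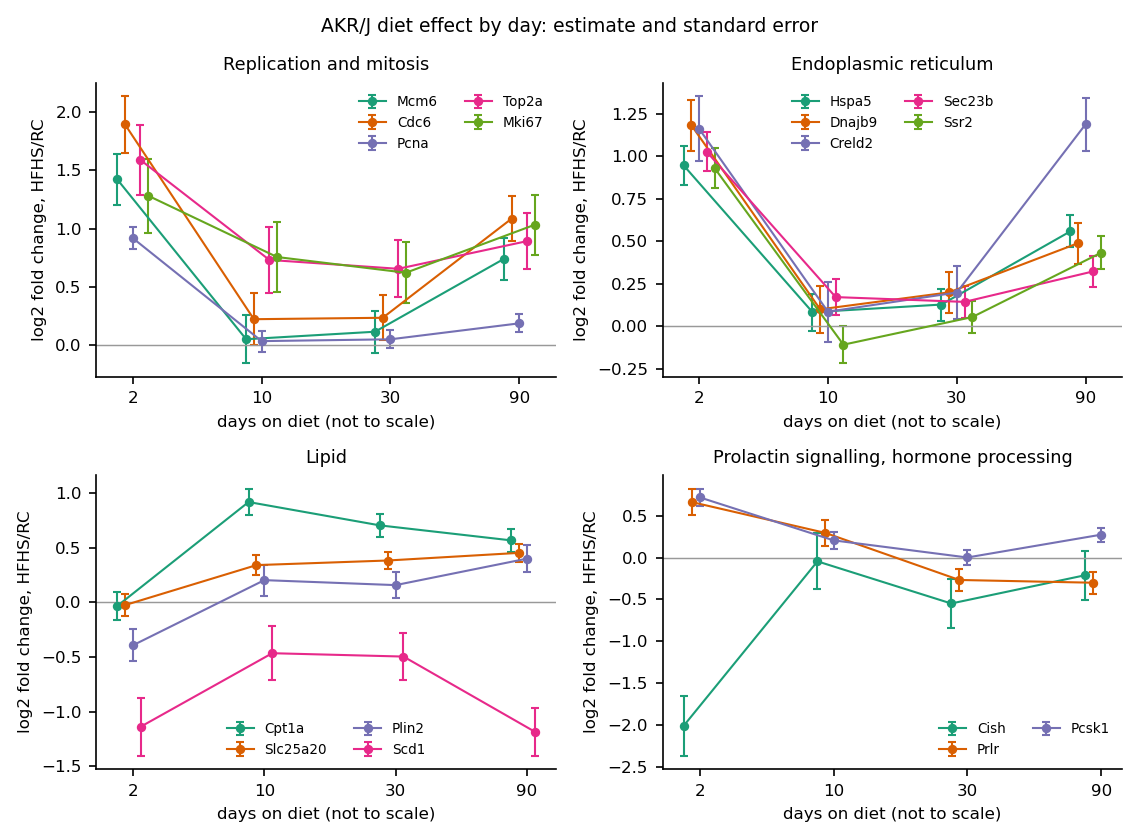
Diet effect (log2 fold change of HFHS over RC, with its standard error) in AKR/J mice at days 2, 10, 30 and 90 for 17 genes in 4 groups; the day axis is not to scale and lines only join the points of a gene. Mcm6, Pcna and the 5 ER genes plotted are higher at day 2 than at days 10 and 30, Creld2 is at 1.19 at day 90, and Cpt1a is at -0.03 at day 2 and at 0.92 at day 10.

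Whether other strains respond alike at day 2 was tested against the mean effect of C57Bl/6J (6 HFHS and 6 RC mice), DBA/2J (6 and 6) and A/J mice at the same day. A/J at day 2 held 5 of 11 libraries with a strong GC dependence (beyond 0.5 log2 per 10 GC points), so values against C57Bl/6J and DBA/2J alone are given beside them. The AKR/J effect was higher for 475 genes (3.05%) and lower for 182 (1.17%) against 3 strains, and higher for 1114 (7.28%) and lower for 1121 (7.32%) without A/J. Against the mean of all 5 other strains it was higher for 359 genes and lower for 216. That mean adds BALB/cJ and 129S2/SvPas, which also held day 2 libraries with a strong GC dependence. In BALB/cJ the slopes ran from -2.15 to -0.904 on HFHS and from -0.369 to 0.101 on RC, so they moved with diet. In 129S2/SvPas they ran from -2.80 to 0.0975. By the diet effect within each strain, C57Bl/6J had 5 genes higher (0.0321%) and 14 lower (0.0898%), and A/J had 2659 and 1551 (17.1% and 9.95%). In DBA/2J edgeR called 0 genes (0%) in either direction, with 405 at an unadjusted p under 0.05.

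Most cell cycle genes had a higher diet effect in AKR/J than in the other strains compared. Of 39 cell cycle genes, 36 had a higher effect in AKR/J than over 3 strains (median difference 1.82), and 34 against C57Bl/6J and DBA/2J (median 1.05). The larger size in the first comparison came with a fall of 35 of the 39 genes in A/J (median -2.12). There the GC dependence differed between libraries. With libraries beyond the GC bound left out, A/J kept 3 HFHS and 3 RC mice. In that fit 37 of the 39 genes had a higher effect in AKR/J than over 3 strains (median difference 2.015). The part of the GC dependence was not tested. Mcm6 had log2 fold changes of -0.15 in C57Bl/6J, 0.42 in DBA/2J and -0.51 in A/J, and its difference was 1.50 (SE 0.222, edgeR adjusted p = 1.89e-05), or 1.25 without A/J (edgeR adjusted p = 0.000228). Top2a differed by 2.63, or by 1.59 without A/J. Of 14 chaperones and folding enzymes, 9 had a higher effect in AKR/J, and all 14 did without A/J (median 0.88). Hspa5 was at -0.10, 0.15 and -0.03 in the other strains, a difference of 0.94 (SE 0.245, edgeR adjusted p = 0.0161; 0.0652 without 5RC5), or of 0.88 without A/J (edgeR adjusted p = 8.21e-05). Sec23b was at -0.12, 0.11 and -0.10, a difference of 1.07 (edgeR adjusted p = 0.00164), or of 0.99 without A/J (edgeR adjusted p = 2.61e-05), and 32 of 66 entry and export genes had a higher effect in AKR/J, or 54 without A/J.

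The 10 genes with the smallest p against 3 strains were Cdc45 (difference 1.72), Cks1b (1.92), Cdca3 (2.12), Tcf19 (1.87), Dapl1 (1.65), Pbk (2.85), Sdf2l1 (1.70), the thymidylate synthase Tyms (1.21), the flap nuclease Fen1 (1.52) and Srprb (0.94), a subunit of the receptor that docks ribosomes at the ER. Against C57Bl/6J and DBA/2J alone their differences were smaller in each case, from 0.74 for Srprb to 1.55 for Pbk, and each still passed.

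Other genes differed in either direction. Cpt1a rose by 0.73 in C57Bl/6J (edgeR adjusted p = 0.0242) and by 1.07 in A/J and was at 0.43 in DBA/2J, so that the AKR/J effect was lower by 0.77 (SE 0.181, edgeR adjusted p = 0.00613), or by 0.65 without A/J. Cish, at 0.95, -0.22 and -0.07 elsewhere, differed by -2.23 (SE 0.606, edgeR adjusted p = 0.0225; 0.0515 without 5HF1 and 0.073 without 5RC5), or by -2.41 without A/J (edgeR adjusted p = 0.0111). The clock-linked Bhlhe40, at 0.32, 0.03 and 0.77, differed by -0.97 (edgeR adjusted p = 0.00134), or by -0.82 without A/J (edgeR adjusted p = 0.000623). Nfil3, which fell by 0.97 in C57Bl/6J and by 1.66 in A/J, differed by 1.01 (edgeR adjusted p = 4.28e-05), or by 0.62 without A/J (edgeR adjusted p = 0.000293). The test gave no call for Gcg (0.33, edgeR adjusted p = 0.284; 0.25 and 0.185 without A/J) or Scd1 (-0.89, edgeR adjusted p = 0.0542), although Scd1 passed without A/J (-0.62, edgeR adjusted p = 0.0282).

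**Figure D5:**
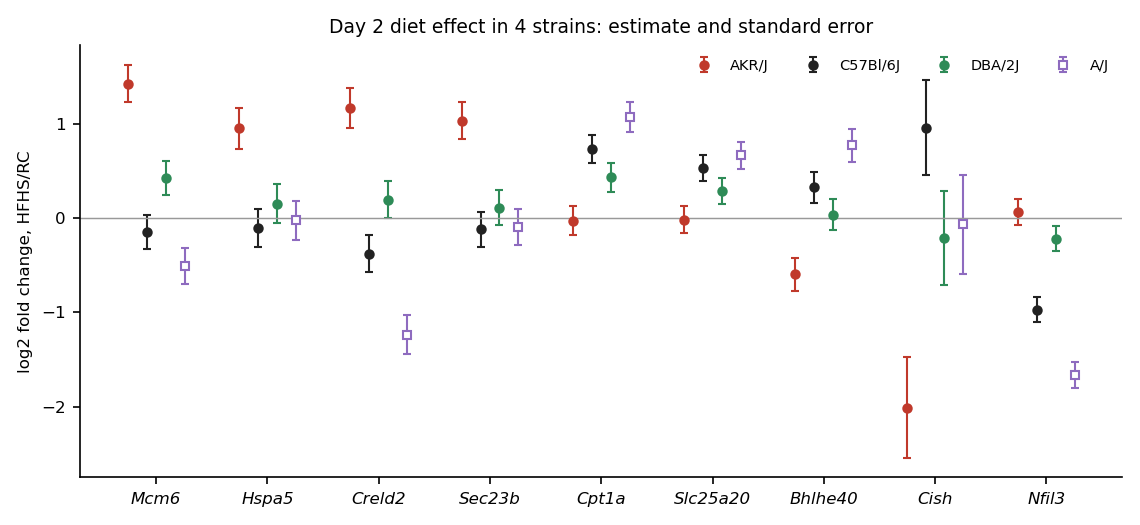
Diet effect at day 2 (log2 fold change of HFHS over RC with its standard error) for 9 genes in AKR/J (red), C57Bl/6J (black), DBA/2J (green) and A/J (open purple squares), from the fit of 46 day 2 libraries. AKR/J is the highest of the 4 strains in Mcm6, Hspa5, Creld2 and Sec23b, and the lowest in Cpt1a, Slc25a20, Bhlhe40 and Cish.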

How the data were processed

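Total RNA of islets (at least 150 per mouse) was sequenced from 200 ng with the TruSeq RNA v2 kit, per the labels' protocols. That kit keeps no strand, so antisense and overlapping genes share reads. TopHat 1.3.3, SAMtools 0.1.16, HTSeq 0.5.3p3, edgeR and the build mm9 were used, per the submitters' processing notes. The deposited raw table holds whole-number counts of reads per gene symbol for 21382 genes, and the authors deposited a second table in log2 units for 14826 genes, where a value is the log2 of 1 plus the count multiplied by a library's factor.

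Groups follow strain, diet and day of the labels. Genes were filtered by filterByExpr, scaled by TMM and tested by edgeR 4.0.16 in R 4.3.3 (robust quasi-likelihood, prior count 2, Benjamini-Hochberg adjustment over all genes at 0.05). The p-values measure the spread between mice and their libraries. The strain contrast used 46 day 2 libraries. Levels given as normalised CPM are counts over the TMM-scaled total of the tested genes, and summed marker levels and shares use all assigned reads. Shares were compared over the 462 arrangements of the 11 mice, adjusted over 11 lists.

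The members, the 27 lists (443 of 449 symbols in the table), the tests and the 4 added lists were chosen with earlier results of these data known. Named genes were the 15 largest rises and falls with a mean CPM of at least 5, up to 6 called members of each list by p, the 10 smallest p of the time and strain contrasts, and a set of genes always named. Of these the text names those it describes, and genes outside that rule were chosen after their values were seen. Alternatives were DESeq2 1.42.0, limma 3.58.1, other scalings, filters and covariates, and each mouse left out. Those using the GC offset for the time and strain contrasts, the GC bound and the pair C57Bl/6J and DBA/2J were added after the data were seen. On simulated data with 15410 genes the day 2 fit called 50 of 50 genes with a log2 change of -1 and 47 of 50 with 1, 41 and 37 of 50 at -0.5 and 0.5, and 11 of 15210 unchanged genes. The changed genes were drawn from those above a bound on the average level, and the counts followed the fitted model. Changed genes of low level, outlying mice and changes in a large part of the genes were therefore not covered. Some results are not reported here.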

Additional observations from a re-analysis of the deposited data

Results flagged for a closer look

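Several single mice lay apart from their group of 5 or 6 by Dixon's test at 95%, which chance sets off in about 1 in 20 groups. Among the RC mice, 5RC3 was high in the lymphocyte sum (394 CPM), Cd3e (11.8 normalised CPM) and Ptprc (107.9), and low in Slc38a5 (16.4), while 5RC2 was high in Xbp1 (346). Among the HFHS mice, 5HF3 was high in the lymphocyte sum (30.7 CPM), Cd3e (0.327) and Ptprc (12.1) and 5HF1 was high in the alpha cell sum (41890 CPM).

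The day 2 effect differed from the mean of the later effects in AKR/J for 1548 genes with a higher and 979 with a lower value, by edgeR's test of the difference itself. Among the genes described, the log2 difference was higher at day 2 for Mcm6 (1.12), Pcna (0.83), Zfp367 (0.97), Hspa5 (0.69), Creld2 (0.67), Dnajc10 (0.40), Txnl1 (0.54), Pcsk1 (0.56), Gcg (1.14), Sst (0.88), Neurog3 (1.05), Prlr (0.75), Zfyve21 (0.68), Aldh5a1 (0.56), Rwdd4a (0.54), Chchd3 (0.48) and Cisd2 (0.32). It was lower for Cish (-1.74), Cpt1a (-0.76), Cln3 (-0.52) and Slc25a20 (-0.42).

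The AKR/J effect at day 2 differed from the mean of C57Bl/6J, DBA/2J and A/J for 475 genes with a higher and 182 with a lower value. The log2 difference was higher in AKR/J for Pbk (2.85), Top2a (2.63), Cdca3 (2.12), Cks1b (1.92), Tcf19 (1.87), Cdc45 (1.72), Sdf2l1 (1.70), Dapl1 (1.65), Fen1 (1.52), Mcm6 (1.50), Tyms (1.21), Sec23b (1.07), Nfil3 (1.01), Srprb (0.94) and Hspa5 (0.94). It was lower for Cish (-2.23), Bhlhe40 (-0.97) and Cpt1a (-0.77).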

How the results depend on the processing

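The counts of genes higher and lower on HFHS were 2489 and 2101. They were 620 and 518 with all libraries in 48 groups, and 1508 and 3231 by limma on the authors' values. With a replicate block they were 1640 and 1380, and with the 11 libraries alone 1676 and 1162. They ran from 2146 to 2545 and from 1361 to 2182 with each mouse left out. The mice share only a number across diets: deviations of the 5 same-numbered pairs correlated from -0.0333 to 0.411, 3 of them over 0.1, and 1 RC mouse lay closest to its own number. The time contrast gave 69 higher and 68 lower in 48 groups, and 1012 to 1647 and 435 to 1110 with each mouse left out. The strain contrast gave 1019 and 441 with the GC offset (1460 in all), 1824 and 2180 without libraries beyond the GC bound (4004), 1114 and 1121 against C57Bl/6J and DBA/2J (2235), and 517 and 362 in 48 groups; with each mouse left out it gave 456 to 657 in all, and without 5HF3 the number lower was 1.57 times smaller. The difference in share, HFHS minus RC in percentage points, was -0.0585 for stellate, -0.0098 for macrophage and -0.000871 for adipocyte genes on the TMM scale, none past the test. With each mouse left out it ran from -0.0865 to -0.0593 for stellate, -0.0425 to -0.0319 for endothelial, -0.0152 to -0.00847 for macrophage, -0.0108 to -0.00136 for lymphocyte, -0.00131 to -0.000962 for adipocyte and 0.396 to 0.682 for alpha cell genes. Of the named genes, 99 kept their direction and side of the threshold in every alternative run, 60 changed in at least 1 and 20 with a mouse left out; Lck ran from -2.16 to 0.071, the latter without 5RC3, and 44 lost their call in 48 groups. In the time contrast 12 of 25 changed in at least 1 alternative and 1 with a mouse left out, and in the strain contrast 3 of 20 and 3. The cause of these shifts was not tested.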

Other observations

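Within the HFHS group, levels of replication and chaperone genes varied from mouse to mouse. Mcm6 was at 32.5, 27.96 and 38.9 normalised CPM in 5HF1, 5HF3 and 5HF6 and at 15.2, 20.8 and 14.9 in 5HF2, 5HF4 and 5HF5. Fen1, the flap nuclease, was at 42.3, 41.8 and 35.6 in the same 3 mice and at 29.1, 30.8 and 23.1 in the others. Sdf2l1, an ER chaperone partner, was at 404, 384 and 269 in 5HF1, 5HF3 and 5HF6 and at 348, 329 and 218 in 5HF2, 5HF4 and 5HF5. The order among mice of a group was not tested.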
